A study of Mus musculus with 8 samples.

Results

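The collagen genes are the rows of the deposited count tables whose symbol is Col, a number, a and a number, and 44 of the 23282 gene rows met that rule. Col4a3bp, a ceramide transporter whose symbol only resembles the family, was left out. By structure the 44 fall into 11 fibrillar genes, 9 basement membrane genes, 6 type VI (beaded filament) genes, 9 genes of the FACIT group, which bind to the surface of other fibrils, 3 network genes of types VIII and X, 4 transmembrane genes and 2 others.

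Collagens are proteins of the extracellular matrix whose chains wind around each other into a stiff helix. Fibrillar collagens build the tension-bearing fibres of stroma, type IV collagen forms the sheet under epithelia, vessels and muscle cells, and type VI collagen links cells to fibres. In the uterus they are made mainly by stromal fibroblasts and smooth muscle cells, while the healthy liver holds little fibrillar collagen.

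Uterus and liver of female mice of the outbred CD-1 stock were profiled with QuantSeq, in which reads come from beside the poly(A) tail, so that counts stand for transcripts and are not scaled by length. All animals, controls included, had been ovariectomized at 6 weeks of age, which removes the main source of estrogen, and had 1 week of rest. They then received, by mouth for 7 days, both agents, BPA alone, KRG alone, or neither (control). BPA is bisphenol A, a building block of plastics with estrogen-like activity, and was given at 200 mg/kg/day. KRG is Korean red ginseng, given at 1.2 g/kg/day. Each of the 4 treatments has 1 library per tissue, and nothing in the labels tells how many animals a library holds, whether controls received a vehicle, or whether both tissues came from the same animals.

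Levels are CPM, counts scaled to a common library total without length correction. Totals ran from 12372073 to 15290950 counts, and 3 counts were worth 0.196 to 0.242 CPM. Of the 44 genes, 28 averaged at least 5 CPM over the 4 uterus libraries and 12 over the 4 liver libraries, all 12 of them among the 28. Between 39 and 43 members had at least 1 count in a uterus library, and between 31 and 37 in a liver library. The members below 5 CPM in both tissues numbered 16, and 10 of these averaged under 1 CPM in both, among them Col2a1, Col9a1 and Col10a1, which are typical of cartilage.

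Tissue labels were checked against marker genes. Alb, the main secreted protein of hepatocytes, stood between 11550.1 and 15211.4 CPM in the liver libraries. Smooth muscle markers summed to 4659, 4058, 4919 and 3454 CPM in the BPA with KRG, BPA, KRG and control uterus libraries, against 30.6 to 40.3 CPM in liver. Some libraries also held genes of other tissues. The 5 bladder lining markers summed to 6799.6, 3592, 56.0 and 192 CPM in the uterus libraries in the same order, the 7 skeletal muscle markers to 1577, 184, 79.7 and 89.7 CPM, and the 5 adipocyte markers to 843, 620.0, 3201 and 807 CPM. The 7 hepatocyte markers summed to 51.0, 36.4, 726 and 379 CPM in the uterus libraries, with Alb at 2.09, 4.81, 407 and 239 CPM. In liver, the 7 acinar pancreas markers summed to 873 CPM in the BPA library against 0.392 to 5.35 CPM in the others, and the skeletal muscle markers to 1.54, 2.47, 426 and 153 CPM.

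Several collagen genes lie in pairs. Col4a1 and Col4a2, which encode the chains of the common type IV network, start beside each other on opposite strands of chromosome 8 and overlap by 22 bases at their starts. Col4a4 and Col4a3 lie head to head on chromosome 1 with 71 bases between them, and Col4a6 and Col4a5 head to head on chromosome X with 1308 bases between them. Col3a1 and Col5a2 are neighbours on chromosome 1, tail to tail, 24614 bases apart, and Col6a6, Col6a5 and Col6a4 follow each other on chromosome 9.

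Promoter windows are shown for Col1a2 and Col3a1, which had the highest mean levels in uterus, and for the Col4a1 and Col4a2 pair, which shares its start region. The RefSeq table (GRCm38.p6) gives 250 bases before to 50 after a start. The windows lie at chr6:4505368-4505667 on the plus strand for Col1a2, chr1:45311288-45311587 on the plus strand for Col3a1, chr8:11312777-11313076 on the minus strand for Col4a1 and chr8:11312555-11312854 on the plus strand for Col4a2. Each is written 5' to 3' on the gene's own strand. Capitals mark 3 motifs searched on both strands, the CCAAT box (CCAAT or ATTGG), the GC box (GGGCGG or CCGCCC) and the TATA box (TATAAA or TTTATA).
Col1a2: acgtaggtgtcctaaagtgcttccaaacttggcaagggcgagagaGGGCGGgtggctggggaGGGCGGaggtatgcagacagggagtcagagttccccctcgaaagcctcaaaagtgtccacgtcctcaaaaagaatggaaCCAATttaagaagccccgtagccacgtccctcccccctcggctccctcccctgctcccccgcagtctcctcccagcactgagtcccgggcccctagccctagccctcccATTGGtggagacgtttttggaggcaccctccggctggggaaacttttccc
Col3a1: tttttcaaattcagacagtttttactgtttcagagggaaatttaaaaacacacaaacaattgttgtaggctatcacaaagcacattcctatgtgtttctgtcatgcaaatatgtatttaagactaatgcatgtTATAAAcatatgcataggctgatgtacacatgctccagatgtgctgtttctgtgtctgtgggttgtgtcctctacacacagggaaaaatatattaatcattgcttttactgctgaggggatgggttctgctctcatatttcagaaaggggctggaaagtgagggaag
Col4a1: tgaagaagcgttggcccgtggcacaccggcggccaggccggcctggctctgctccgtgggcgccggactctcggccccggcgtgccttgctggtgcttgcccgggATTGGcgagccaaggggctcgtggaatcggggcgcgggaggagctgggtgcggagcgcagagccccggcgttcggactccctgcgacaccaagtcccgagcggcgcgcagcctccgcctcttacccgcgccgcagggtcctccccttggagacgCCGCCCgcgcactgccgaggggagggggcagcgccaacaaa
Col4a2: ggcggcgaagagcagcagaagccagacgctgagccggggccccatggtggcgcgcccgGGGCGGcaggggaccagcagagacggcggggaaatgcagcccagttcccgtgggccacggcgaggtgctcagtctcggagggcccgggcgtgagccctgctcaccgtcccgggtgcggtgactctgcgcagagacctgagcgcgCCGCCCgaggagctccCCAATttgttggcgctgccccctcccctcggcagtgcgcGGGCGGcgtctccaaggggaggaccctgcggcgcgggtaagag
The Col1a2 window held 2 CCAAT boxes and 2 GC boxes, and the Col3a1 window 1 TATA box and neither of the other motifs. The Col4a1 window held 1 CCAAT box and 1 GC box and the Col4a2 window 1 and 3, and these windows share 78 bases, so that a GC box near their common end is in both. Of all 32851 windows in the table, 37.4% held a CCAAT box, 35.7% a GC box and 13.6% a TATA box. Windows were given for 35 members, 38 in all, of which 13 held a CCAAT box, 23 a GC box and 5 a TATA box. A match describes the letters in the window and not a binding site.

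The family as a whole was larger in uterus than in liver. All collagen genes together summed to 3609, 4212, 3926 and 2174 CPM in the BPA with KRG, BPA, KRG and control uterus libraries, and to 589, 592, 523 and 640.2 CPM in the liver libraries in that order. The control uterus was the lowest of the uterus libraries and the control liver the highest of the liver libraries. The make-up differed as well, since fibrillar genes were 72.7%, 66.9%, 60.1% and 56.1% of the family's counts in the same uterus libraries and 9.04%, 9.60%, 12.5% and 12.3% in the liver libraries. Basement membrane genes were between 7.37% and 12.5% of the family in uterus and between 74.1% and 78.8% in liver.

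**Figure D1:**
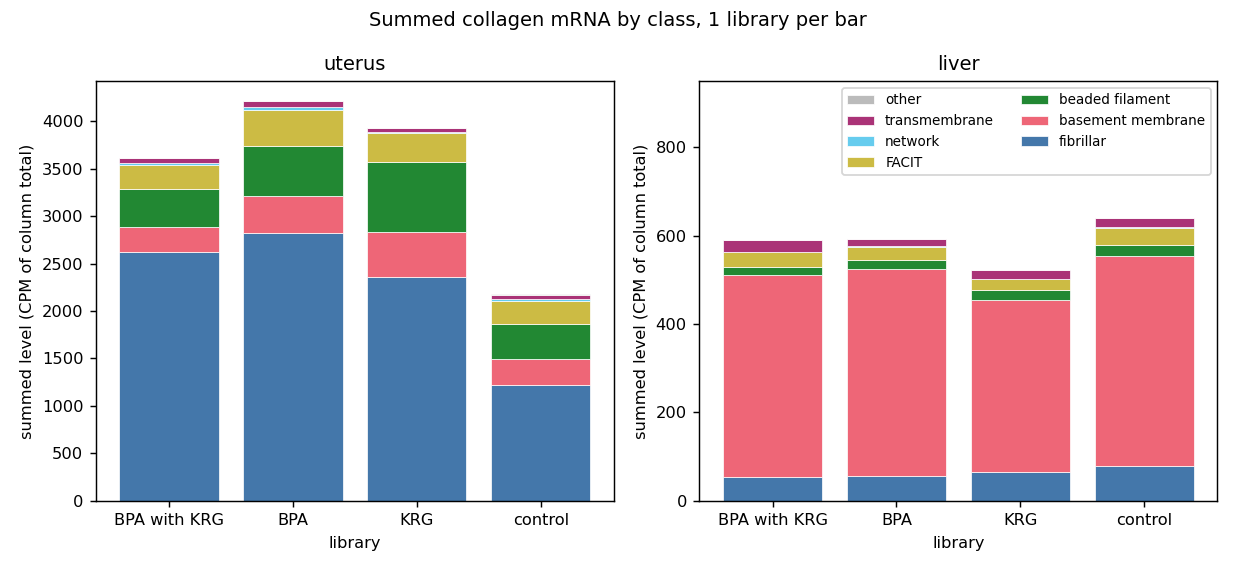
Summed level of the collagen genes of each structural class in the 4 uterus and 4 liver libraries, in CPM of the library total, 1 library per bar, with a separate axis range for each tissue. Fibrillar genes make up 56.1% to 72.7% of the uterus bars, and basement membrane genes 74.1% to 78.8% of the liver bars.

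A few genes carried most of these sums. In uterus Col1a2, Col3a1 and Col1a1 together were 68.1%, 62.5% and 54.1% of the family with BPA and KRG, BPA, and KRG, while in the control uterus the leading genes were Col1a2, Col3a1 and Col6a3 with 51.7%. In liver Col18a1 alone was between 67.9% and 73.0% of the family. It encodes type XVIII collagen, a basement membrane proteoglycan that carries the fragment known as endostatin.

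Uterus and liver were compared over 4 libraries each with edgeR's quasi-likelihood test, which took treatment as a covariate. Its p-values rest on how far the difference between uterus and liver varies from treatment to treatment, and not on a spread between animals. Of 13692 genes tested, 38.3% were higher in uterus and 30.7% lower at an adjusted p under 0.05. Of the collagen genes 31 could be tested, and 26 of them rose in uterus relative to liver, 3 fell, and Col20a1 and Col6a5 did not pass. In bulk tissue, fewer cells of a type and less RNA per cell cannot be told apart. All 4 uterus libraries lay above all 4 liver libraries for 27 of the 31, as for 63% of all genes, and below them for Col13a1 and Col18a1, as for 14.6% of all genes. The result depended on scaling for the whole table. With column totals in place of the trimmed mean of M values (TMM), the median log2 fold change of all genes was 1.12 and not 0.17, the calls over all genes were 8759 higher and 2051 lower in place of 5243 and 4207, and the collagen calls were 27 higher and 2 lower.

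The genes of type I collagen were among the members with the highest fold change between the tissues. Col1a1 (chromosome 11, 94936224 to 94953042, GRCm38) encodes the more abundant chain of type I collagen, the main fibre of stroma. It stood at 619, 703, 628 and 273 CPM in the BPA with KRG, BPA, KRG and control uterus libraries, against 5.50, 8.48, 6.72 and 7.06 CPM in the liver libraries. The groups were far apart, with a log2 fold change of 5.31 (SE 0.35, edgeR adjusted p = 6.41e-05). Its partner chain Col1a2 (chromosome 6, 4504814 to 4541544) stood at 1109.9, 1192, 720.0 and 439 CPM in uterus against 9.70, 10.8, 12.7 and 14.7 CPM in liver (log2 5.14, SE 0.43, adjusted p = 0.00013). Col3a1 (chromosome 1, 45311538 to 45349706), the single chain of type III collagen of elastic stroma and vessels, stood at 729, 738, 775 and 411 CPM in uterus against 18.4, 17.8, 23.0 and 28.1 CPM in liver, a log2 fold change of 3.97 (SE 0.33, adjusted p = 0.000132). Col3a1 stood above Col1a2 and Col1a1 in each of the 4 liver libraries, whereas in uterus Col1a2 was the highest of the 3 in all libraries but that with KRG.

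The type V chains, which help to start type I fibrils, were lower in level. Col5a1 stood at 72.0, 69.5, 104 and 40.1 CPM in uterus against 5.01, 4.63, 6.51 and 7.00 CPM in liver (log2 2.62, SE 0.29, edgeR adjusted p = 0.000379). Col5a2 and Col5a3 rose by 4.46 and 3.18 on the same scale (adjusted p = 0.00024 and 0.00131). Col27a1, a fibrillar collagen of cartilage, was the fibrillar exception. It stood at 12.6, 24.3, 14.5 and 14.3 CPM in uterus against 12.4, 11.3, 13.7 and 18.6 CPM in liver, so the libraries overlapped. Its log2 fold change of -0.74 (SE 0.23, edgeR adjusted p = 0.0269) turned to 0.21 with column totals, and the call was lost without the BPA with KRG, the KRG or the control pair of libraries.

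Col18a1 (chromosome 10, 77052178 to 77166548) was the one basement membrane gene that fell in uterus relative to liver, with 62.4, 94.7, 52.4 and 55.1 CPM in uterus against 421, 432, 355 and 438 CPM in liver. The log2 fold change was -3.62 (SE 0.21, edgeR adjusted p = 4.55e-05) and no library overlapped. Its relative Col15a1 ran the other way, at 55.3, 87.9, 156 and 71.4 CPM in uterus against 3.96, 2.62, 1.99 and 3.40 CPM in liver (log2 3.91, SE 0.41, adjusted p = 0.000309). The count ratio of Col18a1 to Col15a1 within a library was 1.13, 1.08, 0.335 and 0.772 in uterus against 106, 165, 179 and 129 in liver.

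The paired type IV genes differed less between tissues. Col4a1 stood at 84.8, 115, 162 and 77.9 CPM in uterus against 15.2, 18.9, 19.0 and 20.8 CPM in liver (log2 1.58, SE 0.22, edgeR adjusted p = 0.000929). Col4a2 stood at 32.4, 44.5, 72.7 and 32.4 CPM in uterus against 12.9, 9.87, 9.32 and 10.7 CPM in liver (log2 1.06, SE 0.28, adjusted p = 0.0144), a call lost without the BPA libraries (adjusted p = 0.0528). The other type IV genes were lower, with Col4a5 between 8.31 and 12.5 CPM and Col4a6 between 9.19 and 14.3 CPM in uterus, and both rose relative to liver. Col7a1, which forms anchoring fibrils under epithelia, stood at 5.74, 15.2, 5.70 and 9.12 CPM in uterus against at most 0.308 CPM in liver.

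Type VI genes were led by Col6a3 (chromosome 1, 90765923 to 90843971), the long chain of the filament, with 273, 385, 619 and 274 CPM in uterus against 17.5, 19.3, 17.7 and 21.3 CPM in liver (log2 3.32, SE 0.29, edgeR adjusted p = 0.00016). Col6a1 and Col6a2, the short chains, lay between 28.2 and 50.2 CPM in uterus and at or below 1.63 CPM in liver. Col6a2 rose by 5.22 on the log2 scale (SE 0.20, adjusted p = 2.91e-05). Col6a4, an added chain found in the mouse, was at 0 counts in all 4 livers and at 9.87, 21.6, 10.8 and 16.2 CPM in uterus. Against a floor of 3 counts over the liver group it was 268-fold higher. That fold uses column totals and not TMM scaling, and it takes the uterus counts as exact. Col6a5 did not pass (log2 1.55, SE 0.84, adjusted p = 0.141), though it was called with column totals, without the treatment covariate or without the control libraries.

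Among FACIT genes, Col16a1 was highest in uterus at 148, 246, 206 and 179 CPM, against 8.57, 8.48, 4.80 and 5.82 CPM in liver (log2 3.88, SE 0.24, edgeR adjusted p = 5.39e-05). Col14a1, which binds type I fibrils and spaces them, was highest of the group in liver, with 83.6, 114, 85.9 and 56.0 CPM in uterus against 22.8, 18.9, 17.8 and 29.2 CPM in liver (log2 0.98, SE 0.26, adjusted p = 0.0154). That call was lost without the BPA libraries (adjusted p = 0.0684) or the KRG libraries (0.0615). Col9a2 had no count in any liver and stood at 0.743, 1.68, 0.616 and 1.64 CPM in uterus, too low to enter the test. Against the same floor it was 21.5-fold higher in uterus, again with column totals and the uterus counts taken as exact.

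The transmembrane genes went in both directions. Col13a1, which sits at cell contacts and the neuromuscular junction, fell in uterus relative to liver, with 3.58, 8.31, 12.7 and 12.7 CPM in uterus against 25.8, 15.1, 19.3 and 20.3 CPM in liver (log2 -2.15, SE 0.39, edgeR adjusted p = 0.00284). Col17a1, part of the hemidesmosomes that fix epithelium to its basement membrane, and Col23a1 rose by 4.52 and 4.27 on the log2 scale (adjusted p = 0.000929 and 0.000275). Network genes Col8a1 and Col8a2, known from vessels and the cornea, rose by 2.59 and 4.29 (adjusted p = 0.00497 and 0.000109).

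Members under 5 CPM rest on few counts. Col11a1, a minor fibrillar chain, stood at 6.42, 4.52, 3.54 and 1.64 CPM in uterus against at most 0.392 CPM in liver, and rose by 3.24 on the log2 scale (SE 0.82, edgeR adjusted p = 0.0118). Col25a1, a transmembrane collagen of the nervous system, stood at 5.81, 4.08, 0.770 and 2.54 CPM in uterus and at most 0.154 CPM in liver. Col4a3, a chain of the type IV network of kidney and lung, had 0, 0.875, 0.0770 and 0.971 CPM in uterus and 2.59, 1.62, 0.617 and 0.458 CPM in liver, so the groups overlapped. Neither Col25a1 nor Col4a3 had enough counts to enter the test.

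**Figure D2:**
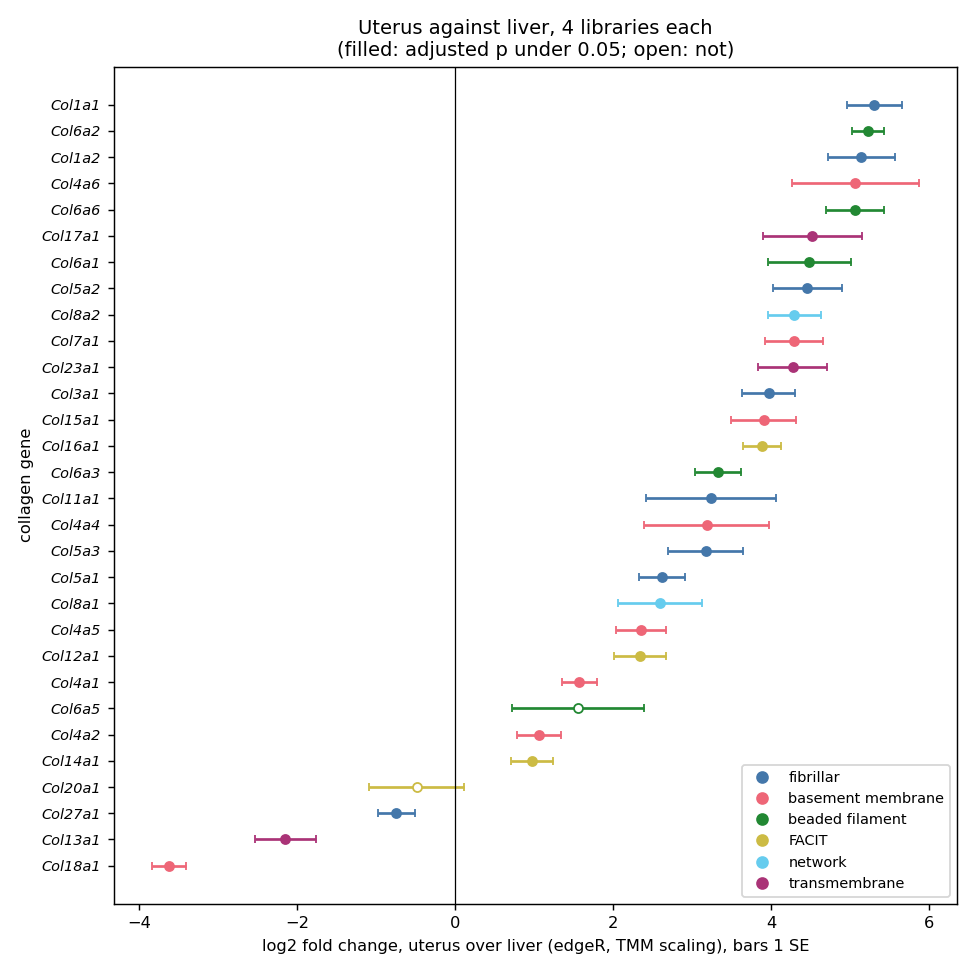
Log2 fold change of uterus over liver for 30 of the 31 collagen genes tested, with bars of 1 SE, from edgeR with TMM scaling over 4 libraries per tissue. Filled points had an adjusted p under 0.05, Col18a1, Col13a1 and Col27a1 lie below 0, and Col6a4, with no count in liver, is not drawn.

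Treatments could be compared only between single libraries, so the ratios below describe pairs of libraries and carry no replicate check or test. The comparisons with control share the control library, and the comparisons with BPA and KRG share the BPA with KRG library. Each ratio is a log2 ratio of CPM + 1, a scale that shrinks differences of low genes, and a gene is counted when it is at least 2-fold apart there. Folds with a 95% interval are ratios of CPM, and the exact Clopper-Pearson interval covers counting error only.

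In uterus the BPA library stood above control for most collagen genes at or above the filter. Of the 28 genes that averaged at least 5 CPM, 27 lay above 0 for BPA over control, with a median log2 ratio of 0.72 against 0.03 over all 11148 genes. At least 2-fold higher were 7 members (3.41% of all genes), and at least 2-fold lower 0 (2.17%). They were Col1a1, Col1a2 and Col5a2 of the fibrillar class, Col12a1 and Col14a1 of the FACIT class, Col6a5 and Col17a1. Col1a1 was 2.57-fold higher (2.47 to 2.67) and Col1a2 2.71-fold higher (2.63 to 2.80), while Col3a1 was 1.80-fold higher (1.74 to 1.86). Col12a1, which coats fibrils in stroma under load, stood at 19.1 CPM in the BPA uterus and 5.53 CPM in the control uterus, 3.45-fold higher (2.66 to 4.53). Col13a1 was the member below 0, at 8.31 CPM against 12.7 CPM in control.

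KRG alone over control gave other leading genes. At least 2-fold higher were 7 members (2.26% of all genes), namely Col1a1, Col5a1, Col5a3, Col4a1, Col4a2, Col15a1 and Col6a3, and 0 were lower (2.03%). The median over 28 members was 0.40 and over all genes -0.13. Col5a2 and Col3a1 lay just under the 2-fold line with column totals, at log2 ratios of 0.98 and 0.91. TMM scaling, which raises the ratios of this pair, moved the median over all genes to -0.005. Col5a3 stood at 63.0 CPM in the KRG uterus and 15.2 CPM in the control uterus, 4.15-fold higher (3.56 to 4.87). Col15a1 was 2.19-fold higher (2.03 to 2.37), Col6a3 2.26-fold (2.17 to 2.35), Col4a1 2.08-fold (1.93 to 2.24) and Col4a2 2.25-fold (2.00 to 2.52). The same library held the highest adipocyte marker sum, 3201 CPM with KRG against 807 CPM in control, and all 5 of those markers were at least 2-fold higher, Adipoq at 1459 CPM against 426 CPM. The part of adipose tissue in these collagen ratios was not tested.

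With BPA and KRG together, 5 members were at least 2-fold higher than in control (5.68% of all genes) and 2 lower (4.31%). Higher were Col1a1 at 2.26-fold (2.18 to 2.35), Col1a2 at 2.53-fold (2.45 to 2.61), Col8a1, Col17a1 and Col6a5, the last at 17.6 CPM in the BPA with KRG uterus and 2.76 CPM in the control uterus. Col6a5 had the highest fold in the comparison, 6.36 (4.49 to 9.23). Col13a1 and Col23a1 were lower, at 3.58 CPM against 12.7 CPM and at 8.58 CPM against 26.8 CPM in control. The median over members was 0.22 and over all genes -0.03.

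Against BPA alone, the BPA with KRG uterus had 0 members at least 2-fold higher (1.21% of all genes) and 4 lower (2.52%), which were Col13a1, Col23a1, Col6a4 and Col7a1. The whole set leaned the same way, with 23 of 28 below 0 and a median of -0.44 against -0.04 over all genes. Col23a1 was 3.47-fold lower (2.84 to 4.27) and Col7a1 2.64-fold lower (2.04 to 3.44). The type I and III genes were close, Col1a1 at 619 CPM against 703 CPM with BPA alone, and Col3a1 at 729 CPM against 738 CPM. With TMM scaling the number lower was 2.

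Against KRG alone, 3 members were at least 2-fold higher with BPA and KRG (7.55% of all genes) and 5 lower (5%). Higher were Col17a1, Col6a5 and Col8a1, with Col17a1 at 28.9 CPM in the BPA with KRG uterus and 6.85 CPM in the KRG uterus. Lower were Col13a1, Col15a1, Col6a3, Col4a2 and Col5a3. Col15a1 was 2.82-fold lower (2.60 to 3.07), at 55.3 CPM against 156 CPM.

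**Figure D3:**
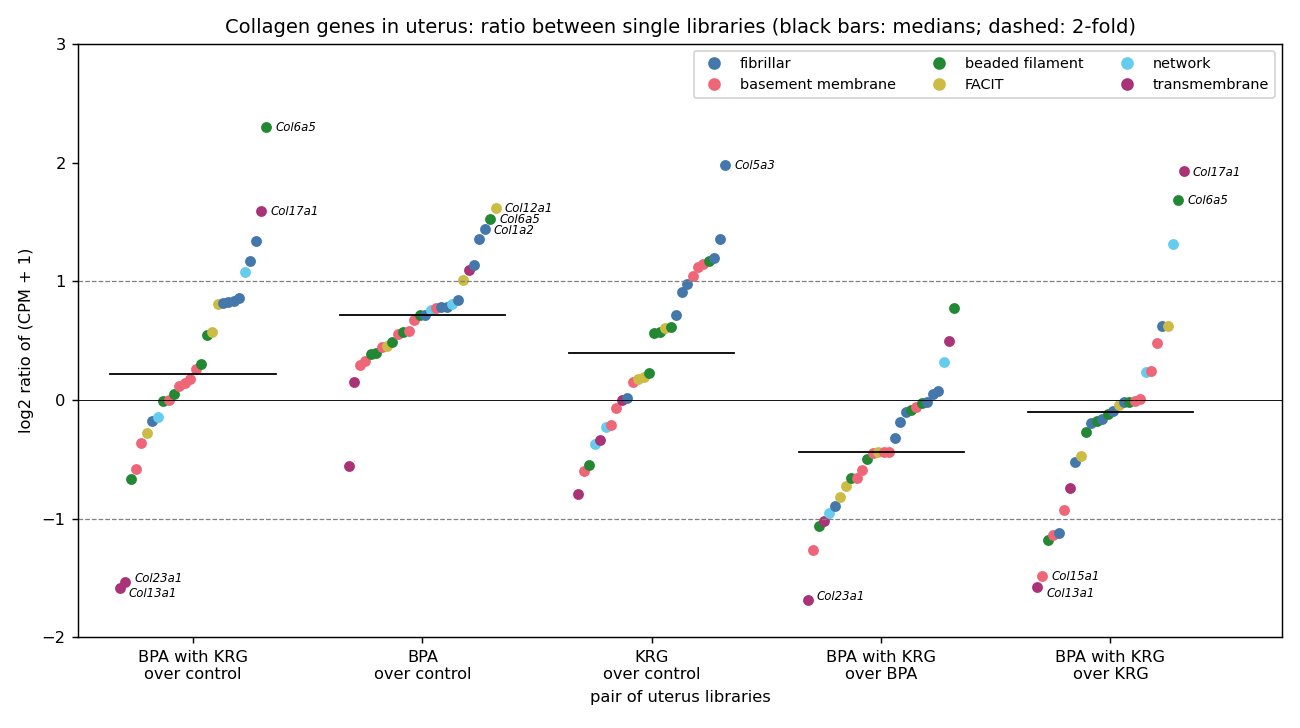
Log2 ratio of CPM + 1 between single uterus libraries for the 28 collagen genes averaging at least 5 CPM, coloured by class, with dashed lines at 2-fold and a black bar at the median. The medians lie at 0.22 for BPA with KRG, 0.72 for BPA and 0.40 for KRG over control, and at -0.44 over BPA and -0.10 over KRG.

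Markers of other cells moved with these libraries. Epithelial markers summed to 3462, 2869, 1322 and 1950.3 CPM in the BPA with KRG, BPA, KRG and control uterus libraries, and Col17a1 stood at 28.9, 20.2, 6.85 and 8.89 CPM, so both were highest in the libraries where the bladder lining gene Upk3a was highest. Upk3a stood at 2688, 1279, 7.08 and 67.8 CPM. Most of the epithelial sum was Cdh1 and Krt18, while Epcam and Foxa2, also of that list, were highest in the control uterus. The 7 fibroblast markers summed to 2675, 3994, 3063 and 3888 CPM, most of it Dcn, a proteoglycan of collagen fibres, at 2010.5, 3063, 2277 and 3133 CPM. The other 6 summed to 664, 932, 786 and 755 CPM. The control uterus, lowest in Col1a1, was thus highest in Dcn, and it was lowest in Vim, at 226, 301, 213 and 186 CPM. The smooth muscle sum was lowest in that library, as was each of its markers but Lmod1, at 273, 307, 316 and 303 CPM. The part of bladder, epithelial or muscle tissue in the collagen ratios was not tested.

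The rank of each library needs no threshold. The control uterus was the lowest of the 4 for 15 of 28 members, as for 17.1% of all genes, and these included 6 of 7 fibrillar genes. With TMM scaling the number was 17, as for 21.8% of all genes. The BPA uterus was highest for 16 members (25.1% of all genes) and the KRG uterus for 8 (18.3%). With TMM scaling each was highest for 12, as for 16.6% of all genes with BPA and 28.5% with KRG. The KRG uterus was lowest for 6 members (39.6% of all genes) and the BPA uterus for 0 (12.6%).

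**Figure D4:**
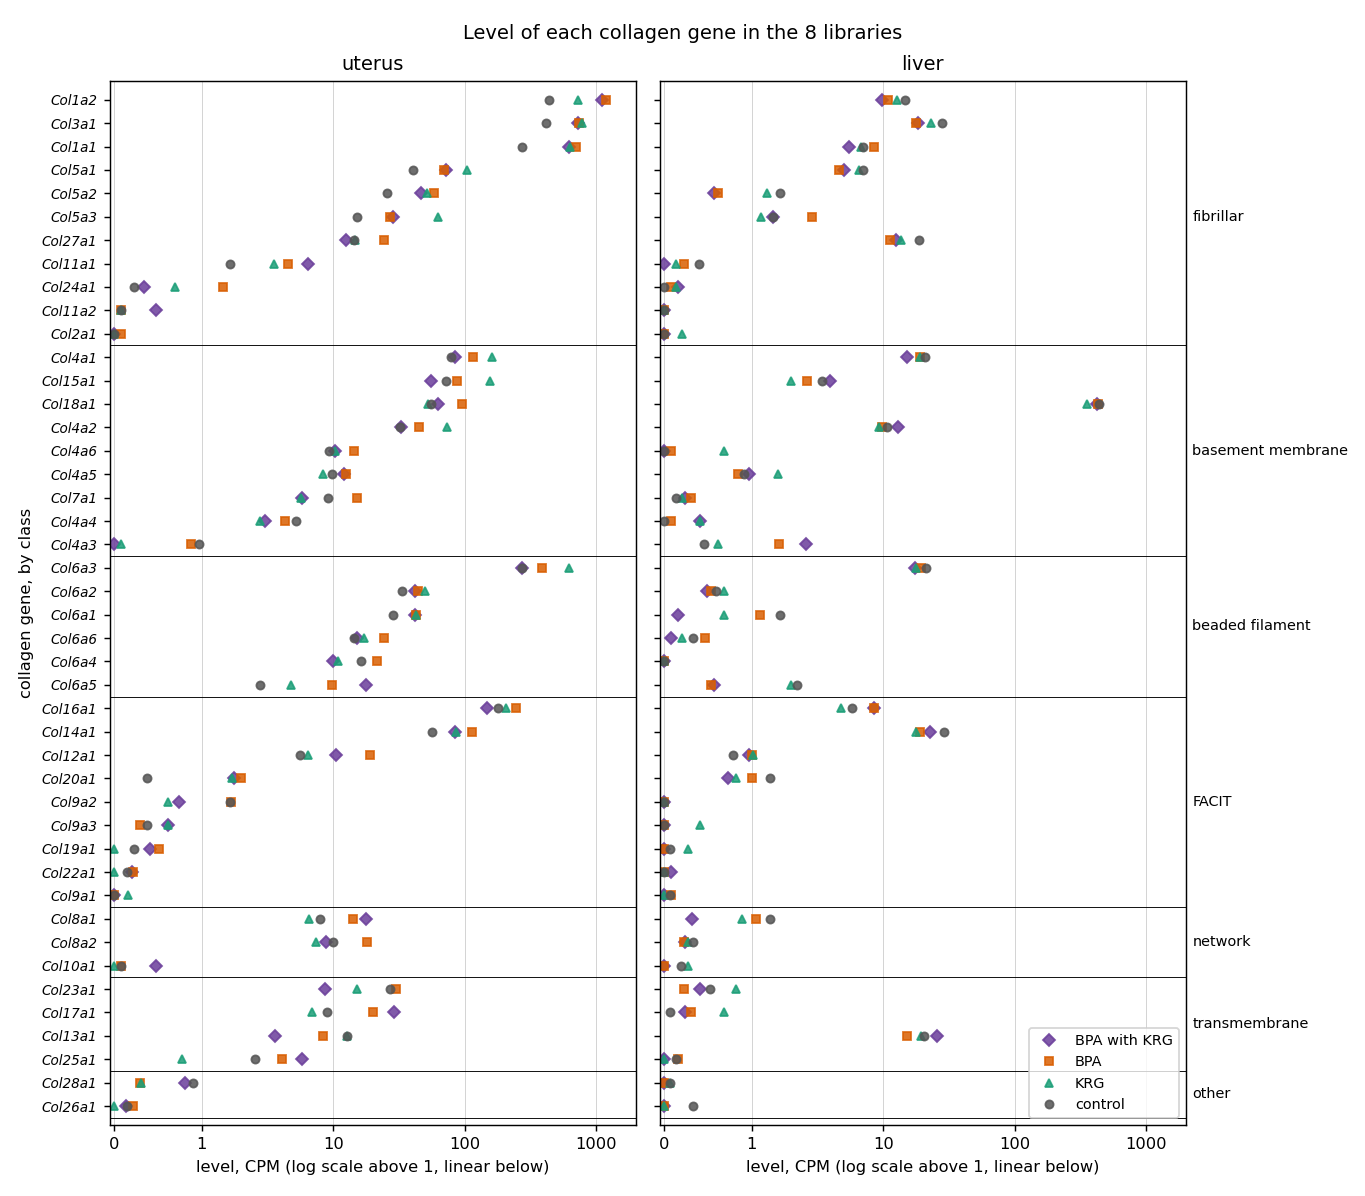
Level of the 44 collagen genes by class in the 4 uterus and 4 liver libraries, in CPM on an axis that is logarithmic above 1 CPM and linear below, 1 point per library. Col1a1 lies between 273 and 703 CPM in the uterus libraries, lowest in control, and between 5.50 and 8.48 CPM in the liver libraries.

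Some partner chains did not keep 1 ratio over the uterus libraries. The count ratio of Col1a2 to Col1a1 was 1.79, 1.69, 1.15 and 1.61 in the BPA with KRG, BPA, KRG and control uterus libraries, and the KRG value, with a counting interval of 1.11 to 1.18, lay below the intervals of the others. Col6a3 to Col6a1 was 6.54, 9.04, 14.6 and 9.71, highest with KRG. Col4a2 to Col4a1 varied less, at 0.382, 0.386, 0.448 and 0.416, as did Col6a2 to Col6a1, at 0.992, 1.03, 1.19 and 1.18. Col4a6 to Col4a5, head to head like Col4a1 and Col4a2, was 0.859, 1.14, 1.24 and 0.939, with counting intervals that overlapped. Col8a2 to Col8a1 was 0.5 with BPA and KRG, against 1.29 with BPA, 1.13 with KRG and 1.26 in control.

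**Figure D5:**
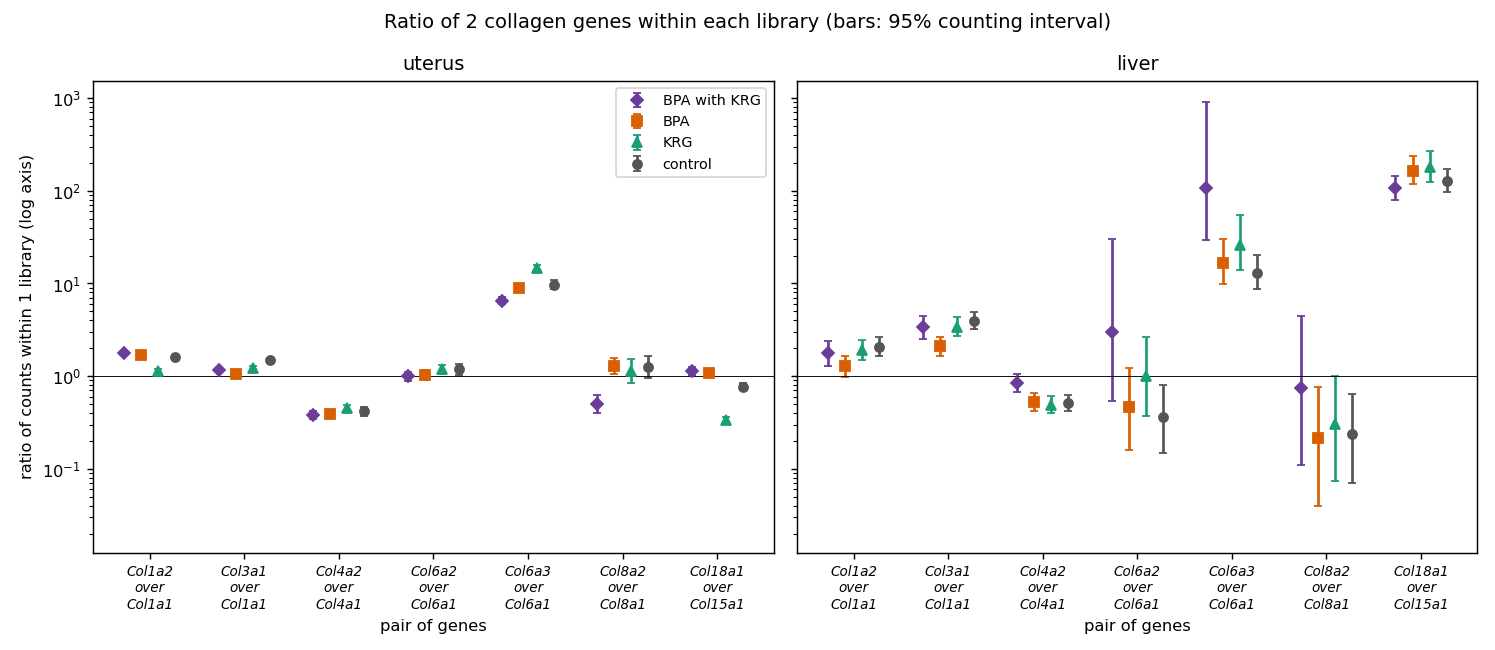
Ratio of counts of 2 collagen genes within each library, on a log axis, with 95% counting intervals. Col18a1 over Col15a1 lies between 0.335 and 1.13 in uterus and between 106 and 179 in liver.

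A model that adds a BPA term and a KRG term, fitted within each tissue, leaves 1 residual degree of freedom and takes any interaction as error. In uterus edgeR called 0 members for BPA in either direction (1.1% of all genes higher and 1.05% lower), while 6 of 28 had an unadjusted p under 0.05, as did 13.7% of all genes. DESeq2 called 3 higher with BPA (2.85% of all genes) and 0 lower (1.7%), namely Col17a1 (log2 1.57, adjusted p = 0.0126), Col1a2 (0.97, 0.0349) and Col6a5 (1.79, 0.0174). For KRG in uterus edgeR called 0 members (0% of all genes in either direction) with 4 unadjusted (4.49% of all genes). DESeq2 called 0 there (0.117% of all genes higher and 0.126% lower) with 3 unadjusted (3.18%). In liver neither tool called a member for BPA or KRG, where edgeR called 0% of all genes higher and 0.0119% lower for BPA and 0% in either direction for KRG. DESeq2 called 0.142% of all genes higher and 0.178% lower for BPA, and 0.13% higher and 0.391% lower for KRG. Unadjusted, edgeR had 2 of 12 members for BPA (5.31% of all genes) and 0 for KRG (3.18%) in liver, and DESeq2 0 for both (2.62% and 2.11%).

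In liver the 12 members that averaged at least 5 CPM stood closer together. For BPA with KRG over control, 0 were at least 2-fold higher (1.13% of all genes) or lower (1.39%), and likewise 0 for BPA over control (1.28% and 3.36%), 0 for KRG over control (1.02% and 1.3%), 0 for BPA with KRG over BPA (2.59% and 1.34%) and 0 over KRG (1.65% and 1.26%). The members lay mostly below control, with 9 of 12 below 0 for BPA with KRG (median log2 ratio -0.33, all genes 0.04), 10 of 12 for BPA (-0.27, all genes -0.09) and 12 of 12 for KRG (-0.21, all genes -0.04). The control liver was the highest of the 4 for 8 of 12 members, as for 26.7% of all genes, and the lowest for 0 (18.8%). With TMM scaling it was highest for 7 (22.9%) and lowest for 0 (23.9%). The BPA with KRG liver was lowest for 4 members (14.3%) with column totals and for 7 (22.6%) with TMM scaling. The BPA liver was lowest for 4 (40.1%) and 1 (27.2%) in that order.

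Col3a1 stood at 18.4, 17.8, 23.0 and 28.1 CPM in the BPA with KRG, BPA, KRG and control livers, and was 1.52-fold lower with both (1.29 to 1.80) and 1.58-fold lower with BPA (1.34 to 1.86). Col14a1 was 1.54-fold lower with BPA (1.32 to 1.81) and 1.64-fold lower with KRG (1.41 to 1.92). Col18a1, the leading collagen of the liver, was 1.23-fold lower with KRG (1.19 to 1.28), and with BPA its interval held 1 (1.01-fold lower, 0.978 to 1.05). Col16a1 ran the other way with BPA, 1.46-fold higher (1.09 to 1.95). Markers of hepatic stellate cells, which make fibrillar collagen in the liver, summed to 132, 103, 136 and 175 CPM. That sum was highest in the control liver as well, though Hgf and Rgs5 of the list were not. The part of stellate cells in the collagen levels was not tested.

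Genes that make, cut or bind collagen were described beside the family. In uterus with BPA over control, where 3.41% of all genes were at least 2-fold higher and 2.17% lower, none of 18 measured genes of chain modification and export was 2-fold apart (median log2 ratio 0.14, all genes 0.03), among them Serpinh1, the collagen chaperone, at 842 CPM against 829 CPM. Of 8 genes for cleavage of the end peptides and cross-linking, 2 were at least 2-fold higher, Adamts2, the protease that trims type I and III chains, at 96.0 CPM against 41.5 CPM, and Loxl2, a cross-linking enzyme, at 22.4 CPM against 10.3 CPM. Of 11 fibril-associated genes 1 was higher (Thbs2), of 12 laminins and other basement membrane partners 1 (Lama5), and of 5 receptors 0, and none was lower in any of these lists. With KRG over control, Sparc, a collagen-binding protein, stood at 2845 CPM against 1298 CPM, Fbn1, the microfibril protein, at 127 CPM against 30.3 CPM, and Hspg2, the basement membrane proteoglycan perlecan, at 227 CPM against 111 CPM. No other measured gene of the 5 lists was 2-fold apart there, against 2.26% of all genes higher and 2.03% lower. In the BPA with KRG uterus, Adamts2 and Fbn1 were at least 2-fold higher than control (5.68% of all genes), and Postn, a stromal matrix protein, was lower (4.31%) at 81.4 CPM against 229.5 CPM.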

How the data were processed

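Per the labels' protocols, 500 ng of total RNA entered each QuantSeq library. The deposited files hold raw counts per gene, 1 file per library, and Bowtie2, edgeR and the build mm10 are named, without roles, in the submitters' processing notes. Whether counting used strand or multiply matched reads is not given in the sources used here, so Col4a3, Col9a3 and Col10a1, whose ends overlap a gene on the opposite strand, are uncertain. Rn45s took 8.30% to 12.4% of each library and stayed in the totals. CPM used column totals, a pseudocount of 1 CPM, a mean of at least 5 CPM over a tissue's 4 libraries and a 2-fold threshold. The tissue test used edgeR 4.0.16 in R 4.3.3 (TMM, at least 1 CPM in 4 libraries, Benjamini-Hochberg over all genes), checked on simulated data. DESeq2 1.42.0, other scalings, filters, pseudocounts and left-out pairs of libraries were alternatives. Intervals are 95% Clopper-Pearson and cover counting error only, since reads carry no molecular identifiers and can be copies of 1 molecule. Coordinates are from GENCODE M21 on GRCm38, the build also called mm10. Members and lists were chosen with earlier results of these data known. The genes named are Col1a1, Col1a2 and Col3a1, the 3 highest of each class and tissue, those past 2-fold and those lower in uterus, and the text describes part of them.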

Additional observations from a re-analysis of the deposited data

Results flagged for a closer look

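In 13 cases a collagen gene averaging at least 5 CPM in both tissues was at least 2-fold apart between a pair of uterus libraries and lay on the other side of 0 in the same pair of liver libraries. In 8 of them the 95% counting intervals of the ratio left out 1 in both tissues, and these are given. With 1 library per group, none of these differences between the tissues was tested. How often genes outside the family lay on opposite sides in this way was not counted. Cases that share a library are not independent of each other. Values are log2 ratios of CPM + 1, uterus before liver. Col13a1 was at -1.02 and 0.73 for BPA with KRG over BPA (difference -1.76), at -1.58 and 0.40 over KRG (difference -1.98) and at -1.58 and 0.33 over control (difference -1.91). Col4a2 was at -1.14 and 0.42 for BPA with KRG over KRG (difference -1.56). Col1a2 was at 1.34 and -0.55 for BPA with KRG over control (difference 1.89) and at 1.44 and -0.41 for BPA over control (difference 1.85). Col14a1 was at 1.01 and -0.60 for BPA over control (difference 1.61). Col6a3 was at 1.17 and -0.25 for KRG over control (difference 1.42).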

How the results depend on the processing

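Over left-out pairs of libraries (the uterus and the liver library of 1 treatment), 24 to 27 members were higher in uterus and 2 to 3 lower. Of all 13692 genes, 4581 to 4827 were higher and 3666 to 3985 lower. Col27a1 turned to 0.21 with column totals. In uterus, members at least 2-fold lower with BPA and KRG than with BPA numbered 4 as reported, 2 with TMM scaling, 2 with DESeq2 size factors, 2 with a filter of 10 CPM and 1 with a pseudocount of 5 CPM. Those lower with both than in control numbered 2, and 1 with the 10 CPM filter. Those higher with BPA than in control numbered 7, and 4 with the pseudocount of 5 CPM. With a filter of 1 CPM or none, the uterus had 1 member lower with KRG than in control in place of 0. With the same filters the liver had 1 higher with both than with KRG, 1 higher with both than in control and 1 lower with BPA than in control, each in place of 0, while those lower with both than in control numbered 1 with the 1 CPM filter and 2 without one. Shares over all genes were not counted for these alternatives of the 2-fold counts. Members higher for BPA in the additive model of uterus numbered 0 with edgeR, 3 with DESeq2, 1 with the 1 CPM filter and 2 without a filter. In the same order, 123 of 11148, 318 of 11148, 153 of 14166 and 348 of 18658 genes were called higher. Of the single gene values under alternatives, 811 kept their side of the threshold or stayed within the limit set for them. Fitted values whose sign turned were counted among these where neither setting called them. Another 23 values moved, 9 passed the threshold newly, 6 lost it and 1 other turned. The cause of these differences was not tested. No analysis paired by replicate number was possible because each group holds 1 library. The tissue test did take treatment, shared by 1 uterus and 1 liver library, as a covariate. Without it 27 members were higher and 3 lower, as were 5510 and 4423 of all 13692 genes.

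Each treatment has 1 library per tissue, so the spread between animals is unknown, and treatment and other differences between the libraries, such as those in bladder, muscle, fat and pancreas markers, cannot be told apart. Members under 5 CPM in a tissue rest on few counts there, and their ratios have wide counting intervals.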
